A study of Mus musculus with 9 samples.

Results

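The 48 genes described here encode the proteins that copy DNA in S phase and 4 enzymes that supply its nucleotides, and they were picked by name from the 55536 genes of an RNA-seq table. All 48 were found once each and the lowest value of any member in any library was 4.43 TPM (Orc1), so all 48 passed the filter on low values, which asked for 1 TPM or more in 3 or more of the 6 libraries of a comparison. TPM is a level scaled by gene length and by the total of the library. The members were sorted into 10 lists by complex or role.

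The libraries came from mouse acute myeloid leukemia (AML) cells driven by the fusion gene MLL-AF9, and 3 groups of 3 libraries were measured. For both models, c-kit+ donor cells were infected with an MSCV retrovirus that carries MLL-AF9 and GFP, so every group shares the oncogene and the marker. GFP+ leukemia cells were then transplanted into C57BL/6J mice 6 to 8 weeks old that were not irradiated, and leukemia cells were sorted from bone marrow on day 18. Surface c-kit is the stem cell factor receptor encoded by Kit. The AML cells of WT donors, with the genotype label "control-GFP overexpression", were split into those without it (WT c-kit-) and those with it (WT c-kit+). The third group has the label IRF7-/- c-kit+ and the genotype label "IRF7-/--GFP overexpression", for c-kit+ cells from donors in which a PGK-beta-geo cassette replaces exons 2 and 3 of Irf7. The sources used here do not say whether replicates are separate mice or from how many primary leukemias each model came, so p-values measure the spread between these libraries, and genotype and leukemia cannot be told apart.

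Irf7 was 23.5, 22.3 and 32.3 TPM in WT c-kit-, 5.31, 3.91 and 3.36 TPM in WT c-kit+ and 12.8, 5.97 and 7.95 TPM across the libraries with the IRF7-/- label. These were below WT c-kit- (log2 fold change −1.49, limma adjusted p = 0.00298) but each was above every WT c-kit+ library. Over WT c-kit+ the log2 fold change was 0.89 (limma adjusted p = 0.0321). The paper reports checks of IRF7 in its AML models at the RNA level (qRT-PCR) and the protein level (Western blot). The Irf7 level here does not decide the knockout label, which was not tested, so this group is called the labelled libraries throughout. The table has 1 value a gene, so it does not show whether the reads lie in the replaced exons or in those left in place. Kit followed the sort, at 0.52 to 3.03 TPM in WT c-kit-, 50.7 to 58.5 TPM in WT c-kit+ and 70.3 to 85.7 TPM in the labelled libraries. The share of each total held by its top 10 genes was 13.1% to 17.3% in WT c-kit+ and 9.39% to 10.3% in the other 6 libraries, and the remaining genes of WT c-kit+ accordingly hold a smaller share of the summed TPM. The summed TPM of 10 neutrophil genes was 6169 to 30685 in WT c-kit-, 56745 to 110880 in WT c-kit+ and 1604 to 2529 in the labelled libraries. The part of this sum in the differences described here was not tested. The list did not move as one between the WT groups. S100a8, S100a9, Camp and Ngp were higher in WT c-kit+, while Mmp8 was lower, with means of 74.6 TPM in WT c-kit- and 4.68 TPM in WT c-kit+. Ly6g, Ltf, Mmp9, Retnlg and Cxcr2 did not pass there. The mean was 1 TPM or more for all 10 neutrophil genes in the WT groups, and for 9 in the labelled libraries. Slc4a1, Ms4a1 and Cd3e, which mark erythroid, B and T cells, were at or below 0.22 TPM in all libraries, but other genes of their lists were not, with Cd79b at 25.8 to 37.1 TPM in the 9 libraries and Lck at up to 3.68 TPM in the labelled ones. Lists of 8 T and NK cell genes and 10 erythroid genes summed to more in the c-kit+ groups (92.5 to 195 TPM against 1.38 to 4.36, and 43.2 to 63.6 TPM against 24.2 to 29.7), mostly as Nkg7 and Tfrc. All 8 listed myeloid markers had a mean of 1 TPM or more in every group, but their levels differed. In the order WT c-kit-, WT c-kit+ and labelled libraries, the Lyz2 means were 9453, 2431 and 393 TPM. The means of Csf1r were 399, 50.9 and 28.9 TPM and those of Mpo 431, 4855 and 3724 TPM. Of 7 MLL-AF9 leukemia markers, Mecom was listed at 0 in the 3 labelled libraries, and Eya1 was lower there than in WT c-kit+. The other markers Hoxa7, Hoxa9, Hoxa10, Meis1 and Pbx3 were higher there, by 0.37 to 2.91 on the log2 scale. TPM keeps no record of read numbers, so the depth is unknown.

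A cell prepares its origins of replication before S phase. The origin recognition complex binds the DNA, Cdc6 and Cdt1 join it, and together they load the ring-shaped MCM helicase, while geminin holds Cdt1 in check so that no origin is used again in the same cycle. Cdc45 and the GINS complex then turn MCM into the active helicase. Primase and polymerase alpha lay down primers, the clamp loader RFC places the PCNA ring on them, polymerases delta and epsilon extend the strands, RPA coats single-stranded DNA, and Fen1 and Lig1 finish the lagging strand. Deoxynucleotides come from ribonucleotide reductase, thymidylate synthase and dUTPase. Much of this set is known to be transcribed under E2F factors at the entry to S phase, so its transcript level is widely read as a sign of cycling cells.

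Across the 48 genes the common order was WT c-kit- lowest, WT c-kit+ between, and the labelled libraries highest. The group means rose in that order for 40 of 48 members (83.3%), against 24.3% of the 12486 genes tested in all 3 comparisons. For 25 members (52.1%) the 9 libraries fell into that order without any overlap between groups, against 6.98% of those genes. The mean was highest in the labelled libraries for 44 members, in WT c-kit+ for Orc3, Rfc1 and Rrm2, and in WT c-kit- for Orc4. Of the 12486 genes, 5320, 2278 and 4888 had their highest mean in these groups, in that order. The members' mean was lowest in WT c-kit+ for 5 members, Orc4, Orc5, Gins1, Pold2 and Rpa1, and lowest in the labelled libraries for none of the 48. Among the 12486 genes these counts were 4545 and 3733. Summed over all members, the level was 3209 ± 199 TPM in WT c-kit-, 3836 ± 122 TPM in WT c-kit+ and 4982 ± 64.5 TPM in the labelled libraries (SD, n = 3 each). In bulk RNA, fewer cells of a type and less RNA per cell cannot be told apart, so these sums do not say whether more cells were in S phase or each cell held more transcript.

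**Figure D1:**
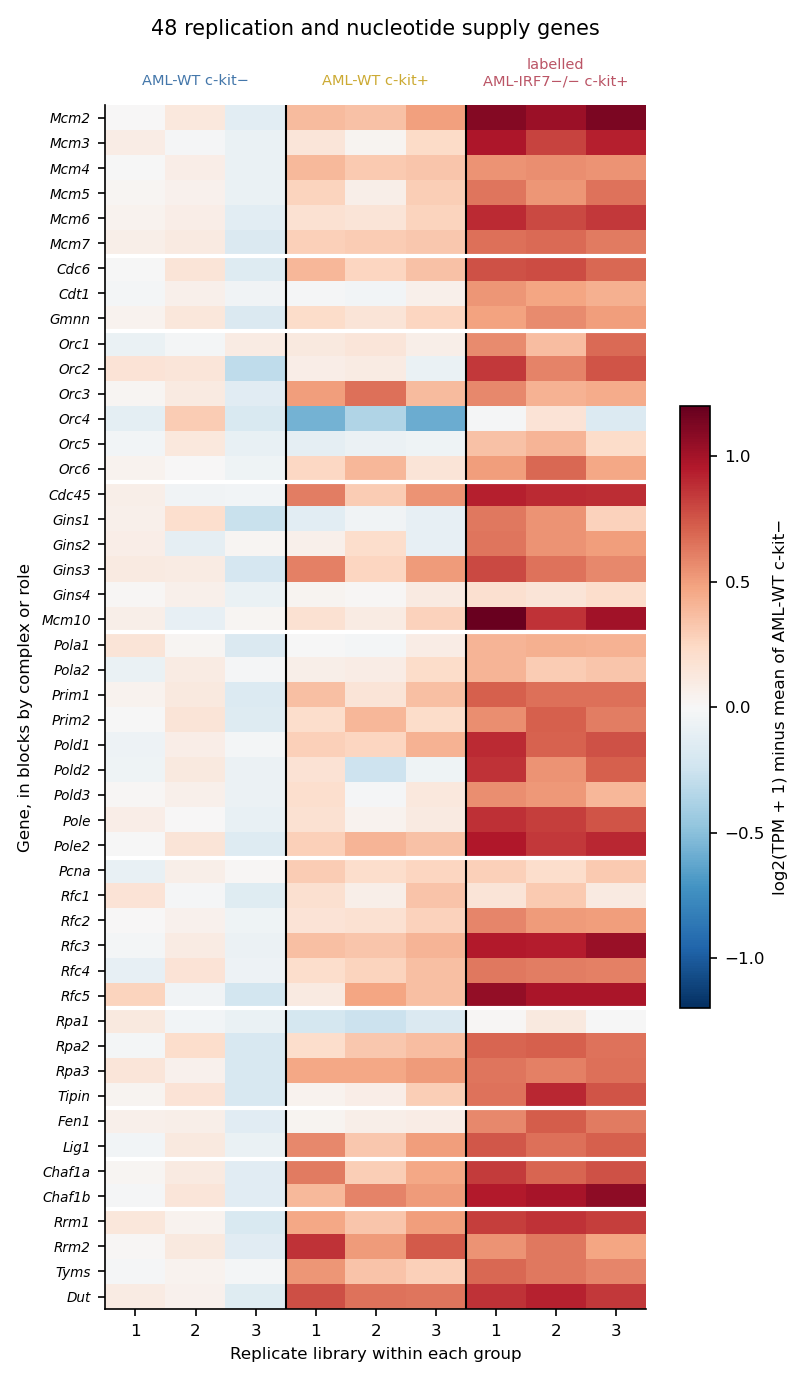
Heat map of log2(TPM + 1) for each of the 48 genes (rows, in blocks by complex or role) in each of the 9 libraries (columns), minus the gene's mean in WT c-kit-; red is higher and blue lower. The labelled libraries were reddest for most rows, and Orc4 and Rpa1 stand out as blue in WT c-kit+. The group mean was highest in the labelled libraries for 44 of 48 genes, against 5320 of the 12486 genes tested in all 3 comparisons.

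The comparison of the c-kit+ groups asks what differs between WT cells and the labelled libraries when both were sorted as c-kit+. Kit itself was higher in the labelled libraries than in WT c-kit+ (log2 fold change 0.58, limma adjusted p = 0.00385). Of the 48 members, 42 were higher in the labelled libraries and 0 lower (limma on log2(TPM + 1), Benjamini-Hochberg adjusted p under 0.05), against 31.9% of all 13238 genes tested higher and 16.1% lower. Every labelled library was above every WT c-kit+ library for 43 members, against 39.0% of all genes. The differences were small. The median log2 fold change of the members was 0.40 and that of all genes 0.12, and no member passed a 2-fold change together with the adjusted p, against 11.7% of all genes. The top genes took a larger share of the total in WT c-kit+, so the count was also taken relative to the median gene, with each library centred on its median over the genes tested. On that scale 33 members were higher and the members' median was 0.32, against 25.1% of all genes higher and 19.7% lower. At an unadjusted p under 0.05, 43 were higher, 0 were lower and 0 also passed the 2-fold change. The share of all genes at that threshold was not counted, here or for the other comparisons below, so these counts have no baseline. Under every alternative tried, 32 of the 42 members kept an adjusted p under 0.05. How many of all called genes did so was not counted.

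WT c-kit+ against WT c-kit- asks how the genes differ with c-kit among WT leukemia cells. Here 22 members were higher in WT c-kit+, 2 were lower and 24 did not pass, against 14.0% of 13261 genes higher and 27.6% lower. Every WT c-kit+ library was above every WT c-kit- library for 29 members, against 19.7% of genes. The median log2 fold change was 0.26 for the members and −0.08 for all genes, and no member passed both thresholds (0 also at an unadjusted p under 0.05), against 14.4% of genes. This count depends on the scale. Relative to the median gene, 37 members were higher and 0 lower, with 23.0% of all genes higher and 19.6% lower, and the higher share of all calls moved from 33.7% to 54.0%. Without replicate 1 of WT c-kit+ the count of higher members was 14 and that of lower members 0, against 10.7% and 22.3% of all genes.

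Between the labelled libraries and WT c-kit-, which differ in both label and c-kit, 45 members were higher and 0 lower (45 and 0 also at an unadjusted p under 0.05), against 30.7% and 28.7% of 13510 genes. Every labelled library was above every WT c-kit- library for 45 members, against 34.7% of genes. The median log2 fold change was 0.64 for the members and 0.03 for all genes. The 4 members that passed both thresholds were Mcm2, Mcm10, Rfc5 and Chaf1b, against 20.3% of genes in either direction, and that number was 2 without replicate 3 of WT c-kit- and 2 without replicate 1 of the labelled group. The 3 comparisons share libraries with each other and are not independent.

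The MCM helicase is the ring of 6 related subunits that unwinds DNA. Its summed level was 804 ± 54.9 TPM in WT c-kit-, 956 ± 42.3 TPM in WT c-kit+ and 1384 ± 39.9 TPM in the labelled libraries (SD, n = 3 each). All 6 subunits were higher in the labelled libraries than in either WT group, while 3 of 6 (Mcm2, Mcm4 and Mcm7) were higher in WT c-kit+ than in WT c-kit-.

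Mcm2 was 83.4, 91.0 and 76.2 TPM in WT c-kit-, 109, 107 and 117 TPM in WT c-kit+, and 179, 171 and 183 TPM across the labelled libraries. The 3 groups did not overlap. Its log2 fold change was 0.41 (SE 0.08, limma adjusted p = 0.00676) between the WT groups and 0.68 (SE 0.06, limma adjusted p = 0.000285) between the c-kit+ groups. Mcm3 had the largest rise of the complex between the c-kit+ groups. It was 171, 159 and 151 TPM in WT c-kit-, 178, 164 and 189 TPM in WT c-kit+, and 316, 283 and 307 TPM across the labelled libraries. The WT groups overlapped (adjusted p = 0.197 by limma), and the labelled libraries stood above both, with a log2 fold change of 0.77 (SE 0.07, limma adjusted p = 0.000413) over WT c-kit+. Mcm4 had the smallest rise there. It was 68.7, 73.2 and 65.2 TPM, then 90.8, 85.7 and 87.2 TPM, then 101, 102 and 101 TPM in the same order of groups. Its groups were apart as well, but the log2 fold change of 0.20 (SE 0.05, limma adjusted p = 0.0134) between the c-kit+ groups did not pass relative to the median gene.

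Mcm6, the subunit with the highest mean over the 9 libraries, was 169, 173 and 150 TPM in WT c-kit-, 186, 182 and 197 TPM in WT c-kit+ and 305, 284 and 296 TPM across the labelled libraries. The groups were apart, although the step between the WT groups did not pass (limma adjusted p = 0.0659), and the log2 fold change between the c-kit+ groups was 0.65 (SE 0.05, limma adjusted p = 0.000279). Mcm5 and Mcm7 rose by 0.40 and 0.35 there. TPM is a level per length of transcript, so the subunits can be set side by side. The most abundant subunit of a library was 2.26 to 2.57 times the least abundant one in the 6 WT libraries and 2.78 to 3.14 times in the labelled ones, and Mcm4 was the lowest subunit in all 9 libraries.

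**Figure D2:**
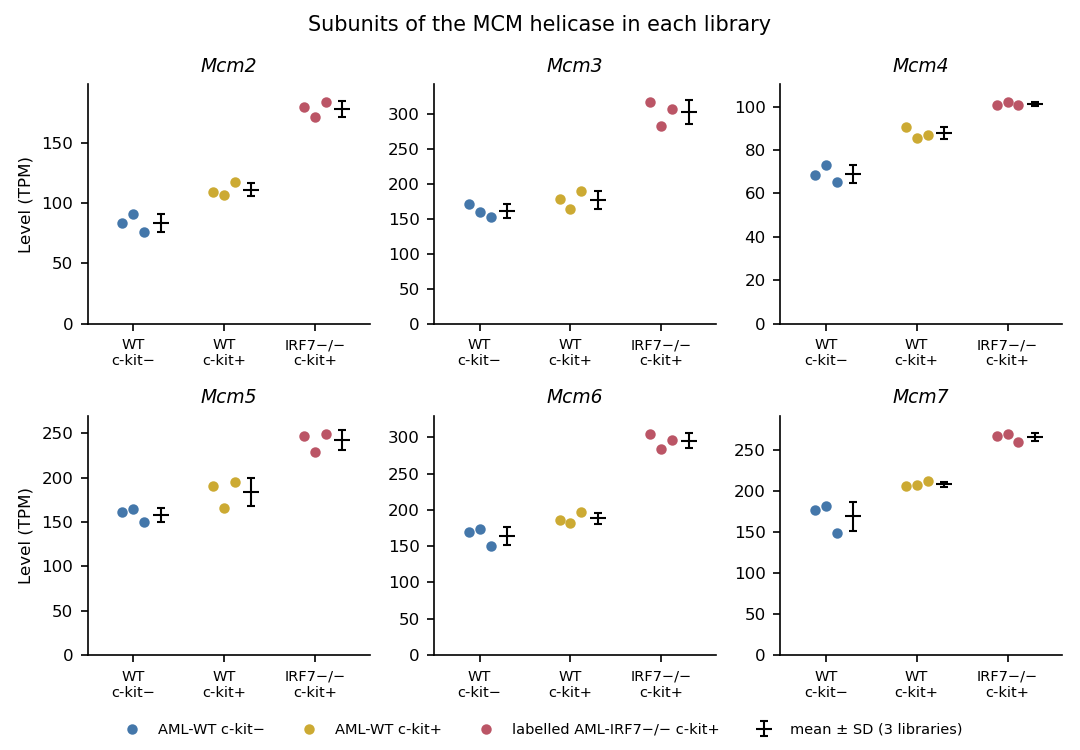
Level in TPM (vertical axis, from 0) of the 6 MCM subunits in each library, as points by group, with the mean ± SD of 3 libraries in black. In every panel the labelled libraries lie above both WT groups, by a log2 fold change over WT c-kit+ of 0.20 for Mcm4 and 0.77 for Mcm3.

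The promoters of the members were searched for short words, in windows from 250 bases before to 50 bases after the RefSeq start on GRCm38.p6. Here 4 members are shown for an E2F word and Mcm10, with the largest rise between the c-kit+ groups, for having none. An E2F word here is any of TTTCCCGC, TTTCGCGC, TTTGCCGC or TTTGGCGC on either strand, 8 letters each, and the CCAAT word of the factor NF-Y was also searched on either strand. Capitals mark these words, and all stretches run 5′ to 3′ on the strand of the gene and lie before its start. The Mcm6 stretch is chr1:128359741-128359830 (minus strand), with 3 E2F words, 2 of them overlapping, and 1 CCAAT word. Mcm5 is chr8:75109344-75109433 (plus strand), with 2 overlapping E2F words. Pola1 is chrX:93632231-93632320 and Orc3 is chr4:34614953-34615042 (both minus strand), with 1 E2F word each. Mcm10 is chr2:5012802-5012891 (minus strand), with 2 CCAAT words.
Mcm6: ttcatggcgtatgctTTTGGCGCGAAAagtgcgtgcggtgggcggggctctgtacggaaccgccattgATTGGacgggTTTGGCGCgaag
Mcm5: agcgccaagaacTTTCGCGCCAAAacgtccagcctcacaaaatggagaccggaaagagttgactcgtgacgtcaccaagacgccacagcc
Pola1: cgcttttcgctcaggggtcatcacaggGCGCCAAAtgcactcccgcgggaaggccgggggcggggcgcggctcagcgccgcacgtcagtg
Orc3: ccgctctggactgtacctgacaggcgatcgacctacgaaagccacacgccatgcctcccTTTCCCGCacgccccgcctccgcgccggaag
Mcm10: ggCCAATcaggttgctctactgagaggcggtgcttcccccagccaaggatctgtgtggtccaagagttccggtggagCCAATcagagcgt

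An E2F word was in the window of 15 of the 39 members that had one (38.5%), against 4.84% of 9352 genes tested between the c-kit+ groups and 2.61% of 27025 genes of the promoter table. The 15 genes were Mcm3, Mcm5, Mcm6, Mcm7, Orc1, Orc3, Cdc6, Cdt1, Gins3, Pola1, Pold1, Pold3, Pole2, Rfc3 and Lig1. Split by the call between the c-kit+ groups, it was in 13 of 34 members that passed and in 2 of 5 that did not, Orc3 and Gins3. The other 9 members had no window. CCAAT was in 61.5% of members with a window and 43.5% of tested genes. The CHR word TTTGAA, known from mitosis genes, was in 12.8% and 14.7%, and the word AANNGAAA of interferon regulatory factors was in 23.1% and 21.1%. A match is a description of letters and does not show that a factor bound there.

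Origin loading and its control comprises Cdc6, Cdt1 and Gmnn, which encodes geminin. All 3 were higher in the labelled libraries than in WT c-kit+. Cdt1 was 74.7, 78.9 and 73.8 TPM in WT c-kit-, 75.2, 74.1 and 79.2 TPM in WT c-kit+ and 110, 105 and 102 TPM across the labelled libraries. The WT groups overlapped and the labelled libraries were apart from both, with a log2 fold change of 0.47 (SE 0.06, limma adjusted p = 0.000925) over WT c-kit+. Gmnn was 75.0, 80.0 and 64.4 TPM in WT c-kit-, 84.8, 81.3 and 87.2 TPM in WT c-kit+ and 102, 108 and 103 TPM across the labelled libraries, so the loader and its inhibitor both rose, by 0.47 and 0.31 on the log2 scale. Cdc6 was the one of the 3 that also passed between the WT groups, at 19.1, 21.4 and 17.1 TPM against 25.6, 23.0 and 24.7 TPM (limma adjusted p = 0.0359), and it was 33.2, 33.7 and 31.4 TPM in the labelled libraries.

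The subunits of the origin recognition complex did not all move together. Between the c-kit+ groups 5 of its 6 subunits were higher in the labelled libraries, Orc3 being the exception, and relative to the median gene Orc1 and Orc6 did not pass, which left Orc2, Orc4 and Orc5. Between the WT groups Orc3 and Orc6 were higher in WT c-kit+, Orc4 was lower, and Orc1, Orc2 and Orc5 did not pass. Orc2 had the largest rise between the c-kit+ groups, from 16.0, 16.2 and 14.2 TPM to 27.9, 23.3 and 26.1 TPM. Its WT c-kit- libraries, at 17.0, 16.7 and 12.0 TPM, overlapped those of WT c-kit+, and 29.8% of its exonic bases overlap Nif3l1 on the other strand, with group means of 10.5, 10.9 and 15.0 TPM in WT c-kit-, WT c-kit+ and the labelled libraries.

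Orc3 was 44.1, 46.6 and 39.4 TPM in WT c-kit-, 61.8, 69.2 and 56.7 TPM in WT c-kit+, and 64.9, 58.1 and 59.4 TPM across the labelled libraries. It was higher with c-kit (log2 fold change 0.52, SE 0.10, limma adjusted p = 0.00586), and the c-kit+ groups overlapped, with a 95% interval of the log2 fold change from −0.24 to 0.17. Orc4 showed another pattern, at 28.1, 38.0 and 27.0 TPM in WT c-kit-, 20.4, 23.6 and 20.0 TPM in WT c-kit+, and 30.4, 34.4 and 27.3 TPM across the labelled libraries. WT c-kit+ lay below both other groups, which overlapped each other. Relative to the median gene the Orc4 difference between the WT groups was −0.35 and no longer passed (limma adjusted p = 0.084). Orc1, the lowest member of all 48, had a mean of 4.73 TPM in WT c-kit- and 7.35 TPM in the labelled libraries, and the highest subunit of a library was 7.29 to 13.0 times Orc1.

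Helicase activation covers Cdc45, the 4 GINS subunits and Mcm10, a factor that helps to start unwinding. Mcm10 had the largest log2 fold change of all members between the c-kit+ groups. It was 33.3, 29.4 and 32.2 TPM in WT c-kit-, 36.1, 33.9 and 38.5 TPM in WT c-kit+ and 73.2, 58.6 and 64.4 TPM across the labelled libraries. The labelled libraries were above both WT groups, and the log2 fold change over WT c-kit+ was 0.83 (SE 0.09, limma adjusted p = 0.000823), which is 1.81-fold in mean TPM. Cdc45, the most abundant of the list, was 47.0, 43.3 and 43.8 TPM, then 69.0, 55.2 and 65.3 TPM, then 86.3, 83.7 and 83.3 TPM, and it was higher in each step.

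The 4 GINS subunits form one complex, and not all of them passed between the c-kit+ groups. Differences between the subunits were not tested. Between the c-kit+ groups Gins1 and Gins2 were higher in the labelled libraries by 0.57 and 0.51 on the log2 scale, and Gins3 and Gins4 did not pass, with values of 0.21 and 0.14 (limma adjusted p = 0.172 and 0.0807). Gins4 was 41.0, 42.1 and 38.3 TPM in WT c-kit-, 41.4, 40.9 and 43.6 TPM in WT c-kit+ and 46.4, 45.2 and 47.1 TPM across the labelled libraries. Its WT groups overlapped, and its c-kit+ groups did not. Of the exonic bases of Gins2, 67.3% overlap Gse1 on the other strand, whose mean rose from 26.3 TPM in WT c-kit- to 40.3 and 42.9 TPM in the c-kit+ groups. The TruSeq v2 kit named in the labels does not mark strand, so reads of the shared bases cannot be told apart. In all, 17 members share exonic bases with another gene, and 7 share over 10% of theirs with a gene of 1 TPM or more.

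Among the polymerases and primase, all 9 members were higher in the labelled libraries than in WT c-kit+, and Pold1 and Pole2 alone were higher in WT c-kit+ than in WT c-kit-. Pold1, the catalytic subunit of polymerase delta and the most abundant of the list, was 69.5, 76.7 and 71.5 TPM, then 88.8, 86.7 and 97.1 TPM, then 136, 119 and 124 TPM, with 3 groups apart. Pold2, the accessory subunit, had the largest rise of the list between the c-kit+ groups. It was 42.5, 47.7 and 42.0 TPM in WT c-kit-, 49.7, 36.9 and 42.4 TPM in WT c-kit+ and 80.9, 64.2 and 72.9 TPM across the labelled libraries. The WT groups overlapped, and the log2 fold change over WT c-kit+ was 0.75 (SE 0.13, limma adjusted p = 0.00375).

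Pole, the catalytic subunit of polymerase epsilon, was 29.1, 26.3 and 27.6 TPM in WT c-kit+ against 47.9, 46.2 and 43.8 TPM in the labelled libraries. Its log2 fold change was 0.71 (SE 0.07, limma adjusted p = 0.000425). Pola1, Pola2, Prim1 and Prim2 had log2 fold changes of 0.40, 0.22, 0.38 and 0.36, and Pola2 had the smallest of the list, from 55.1, 55.8 and 61.1 TPM to 69.6, 65.0 and 66.0 TPM, with 49.4, 56.0 and 51.9 TPM in WT c-kit-. It did not pass relative to the median gene. Pold3 and Pole2 rose by 0.39 and 0.56.

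The sliding clamp and its loader gave different values. Pcna, the clamp, was the most abundant member of all. It was 329, 367 and 353 TPM in WT c-kit-, 433, 405 and 419 TPM in WT c-kit+ and 425, 406 and 434 TPM across the labelled libraries. The c-kit+ groups overlapped, with a log2 fold change of 0.01 (95% interval −0.12 to 0.14, limma adjusted p = 0.897), which turned to −0.07 relative to the median gene, and WT c-kit- lay below both. Rfc1, the large subunit of the clamp loader, was 47.7, 42.3 and 38.3 TPM, then 48.8, 44.6 and 54.3 TPM, then 47.6, 53.0 and 46.0 TPM. All 3 groups overlapped, and Rfc1 was the one member that passed in no comparison, although relative to the median gene it was higher in each c-kit+ group than in WT c-kit- (limma adjusted p = 0.0355 and 0.0446).

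The small subunits Rfc2, Rfc3, Rfc4 and Rfc5 were higher in the labelled libraries by 0.32, 0.61, 0.34 and 0.69 on the log2 scale. Rfc5, with the largest rise of the list, was 45.4, 36.5 and 32.1 TPM in WT c-kit-, 40.7, 52.5 and 48.7 TPM in WT c-kit+ and 79.0, 75.3 and 75.1 TPM across the labelled libraries. The WT groups overlapped and the labelled group was apart from both. Rfc3 had its 3 groups apart, at 32.6, 35.6 and 31.5 TPM, then 43.0, 41.9 and 44.3 TPM, then 65.0, 64.8 and 68.9 TPM. Exonic bases are shared with an expressed neighbour on the other strand for Rfc2 (15.1%, Lat2), Rfc4 (12.7%, Eif4a2) and Rfc5 (10.7%, Wsb2), and their part in the loader's values was not tested. In the order WT c-kit-, WT c-kit+ and the labelled libraries, the group means were 256, 53.7 and 107 TPM for Lat2, which like Rfc2 was higher in the labelled libraries than in WT c-kit+. They were 440, 442 and 323 TPM for Eif4a2 and 18.6, 15.9 and 15.9 TPM for Wsb2.

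RPA, the trimer that coats single-stranded DNA, and Tipin, a partner of Timeless that protects stalled forks, were all higher in the labelled libraries than in WT c-kit+. Relative to the median gene Rpa3 did not pass, and neither Rpa1 nor Rpa3 did with quantile normalization or without the 100 most abundant genes. Tipin had the largest log2 fold change of the list. It was 152, 168 and 130 TPM in WT c-kit-, 154, 158 and 184 TPM in WT c-kit+ and 236, 280 and 252 TPM across the labelled libraries, a log2 fold change of 0.63 (SE 0.09, limma adjusted p = 0.00213). The RPA subunits went different ways between the WT groups. Rpa3 was higher in WT c-kit+, at 65.6, 61.3 and 51.7 TPM against 81.8, 82.3 and 84.8 TPM, and was 92.7, 90.7 and 94.5 TPM in the labelled libraries. Rpa2 did not pass between the WT groups (limma adjusted p = 0.0682). Rpa1, the largest subunit, was 147, 132 and 128 TPM in WT c-kit-, 117, 114 and 120 TPM in WT c-kit+ and 137, 147 and 135 TPM across the labelled libraries. WT c-kit+ was below both other groups, with a log2 fold change against WT c-kit- of −0.21 (SE 0.07, limma adjusted p = 0.0451) that was −0.06 and did not pass relative to the median gene.

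**Figure D3:**
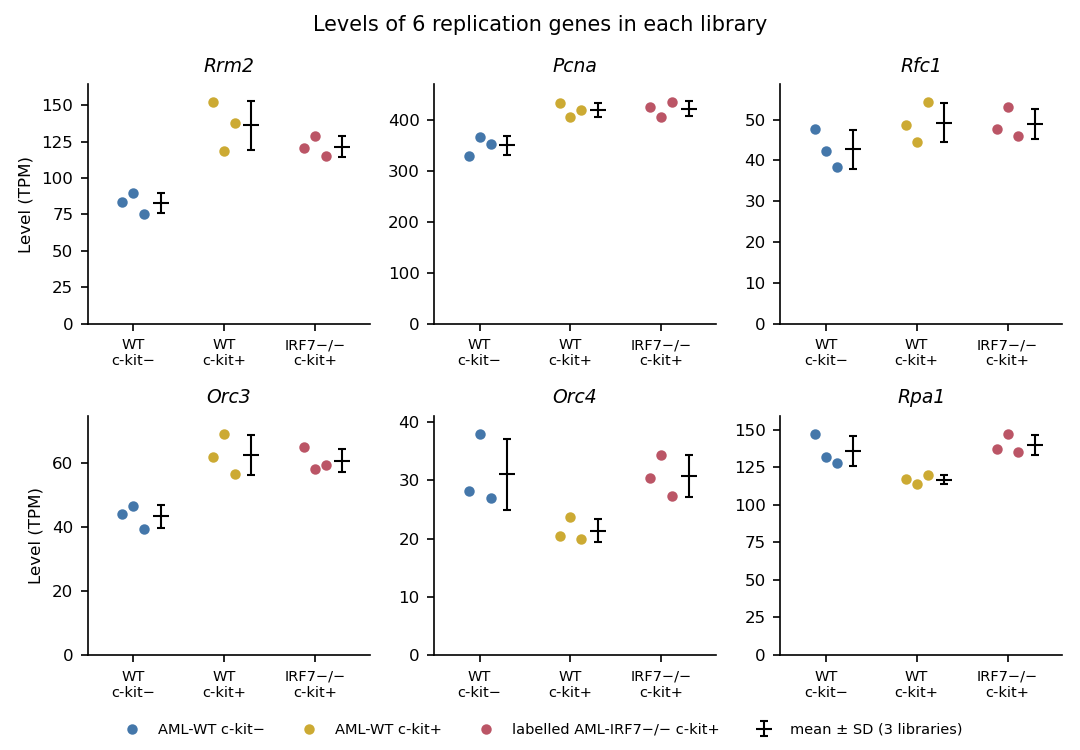
Level in TPM (vertical axis, from 0) of 6 members, in each library as points by group, with the mean ± SD of 3 libraries in black. For Rrm2, Pcna, Rfc1 and Orc3 the c-kit+ groups overlap, and for Orc4 and Rpa1 the WT c-kit+ libraries are the lowest, while the group means of Pcna rise in the common order.

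Both genes of lagging strand joining were higher in the labelled libraries. Fen1, the flap nuclease, was 60.1, 60.5 and 52.4 TPM in WT c-kit-, 58.7, 60.3 and 61.4 TPM in WT c-kit+ and 86.0, 96.0 and 89.0 TPM across the labelled libraries. The WT groups overlapped, and the log2 fold change between the c-kit+ groups was 0.58 (SE 0.06, limma adjusted p = 0.000572). Gm10143, with group means of 2.31, 2.52 and 3.20 TPM, covers 78.8% of the exonic bases of Fen1 on the other strand. Tmem258, also on the other strand, covers 5.37% of them, with group means of 145, 141 and 167 TPM. The part of these neighbours in the Fen1 values was not tested. Lig1, the ligase, had the reverse balance, with 78.5, 87.3 and 76.2 TPM, then 120, 101 and 114 TPM, then 136, 128 and 133 TPM. Its rise was 0.47 between the WT groups and 0.24 between the c-kit+ groups (limma adjusted p = 0.00539 and 0.0331), and the second did not pass relative to the median gene.

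Chromatin assembly factor 1, which lays histones on new DNA, was measured by Chaf1a and Chaf1b, and both rose in each comparison, although Chaf1a did not pass between the c-kit+ groups relative to the median gene, with quantile normalization or without the 100 most abundant genes. Chaf1b was 21.7, 24.3 and 19.9 TPM in WT c-kit-, 29.0, 33.6 and 31.7 TPM in WT c-kit+ and 43.2, 44.4 and 47.1 TPM across the labelled libraries. The 3 groups were apart in equal steps, with a log2 fold change of 0.50 for the first (SE 0.10, limma adjusted p = 0.00703) and for the second (SE 0.07, limma adjusted p = 0.00221). Chaf1a was 33.8, 35.9 and 30.2 TPM, then 51.8, 41.1 and 46.0 TPM, then 60.2, 54.4 and 57.3 TPM. Ubxn6 overlaps 52.5% of its exonic bases on the other strand, with group means of 27.5, 29.8 and 24.6 TPM.

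The 4 nucleotide enzymes are Rrm1, Rrm2, Dut and Tyms. Their median log2 fold change was 0.56 between the WT groups, where all 4 were higher in WT c-kit+, and 0.22 between the c-kit+ groups, where 3 of 4 were higher in the labelled libraries. The difference between these values was not tested. Rrm2, the small subunit of ribonucleotide reductase and the one known to be made in S phase, was 83.9, 89.6 and 75.5 TPM in WT c-kit-, 152, 119 and 138 TPM in WT c-kit+ and 121, 129 and 115 TPM across the labelled libraries. The c-kit+ groups overlapped, and both were above WT c-kit-. The log2 fold change was 0.71 (SE 0.11, limma adjusted p = 0.00239) between the WT groups, the largest of all 48 members there, and −0.16 between the c-kit+ groups (95% interval −0.39 to 0.07, limma adjusted p = 0.224).

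Rrm1, the large subunit, did follow the common order, at 93.0, 87.3 and 74.3 TPM, then 117, 107 and 120 TPM, then 151, 155 and 151 TPM. It rose by 0.43 and 0.41 on the log2 scale, so of the 2 subunits of this enzyme Rrm1 passed between the c-kit+ groups and Rrm2 did not. Dut, the dUTPase that keeps uracil out of DNA, was 81.8, 79.1 and 69.2 TPM, then 131, 121 and 120 TPM, then 140, 146 and 138 TPM. Most of its difference lay between the WT groups, with 0.69 (SE 0.08, limma adjusted p = 0.000705) there and 0.19 (SE 0.06, limma adjusted p = 0.0308) between the c-kit+ groups. Tyms, thymidylate synthase, was 62.4, 64.9 and 62.1 TPM, then 91.4, 80.1 and 77.0 TPM, then 102, 98.2 and 95.0 TPM. The c-kit+ differences of Dut and Tyms did not pass relative to the median gene.

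**Figure D4:**
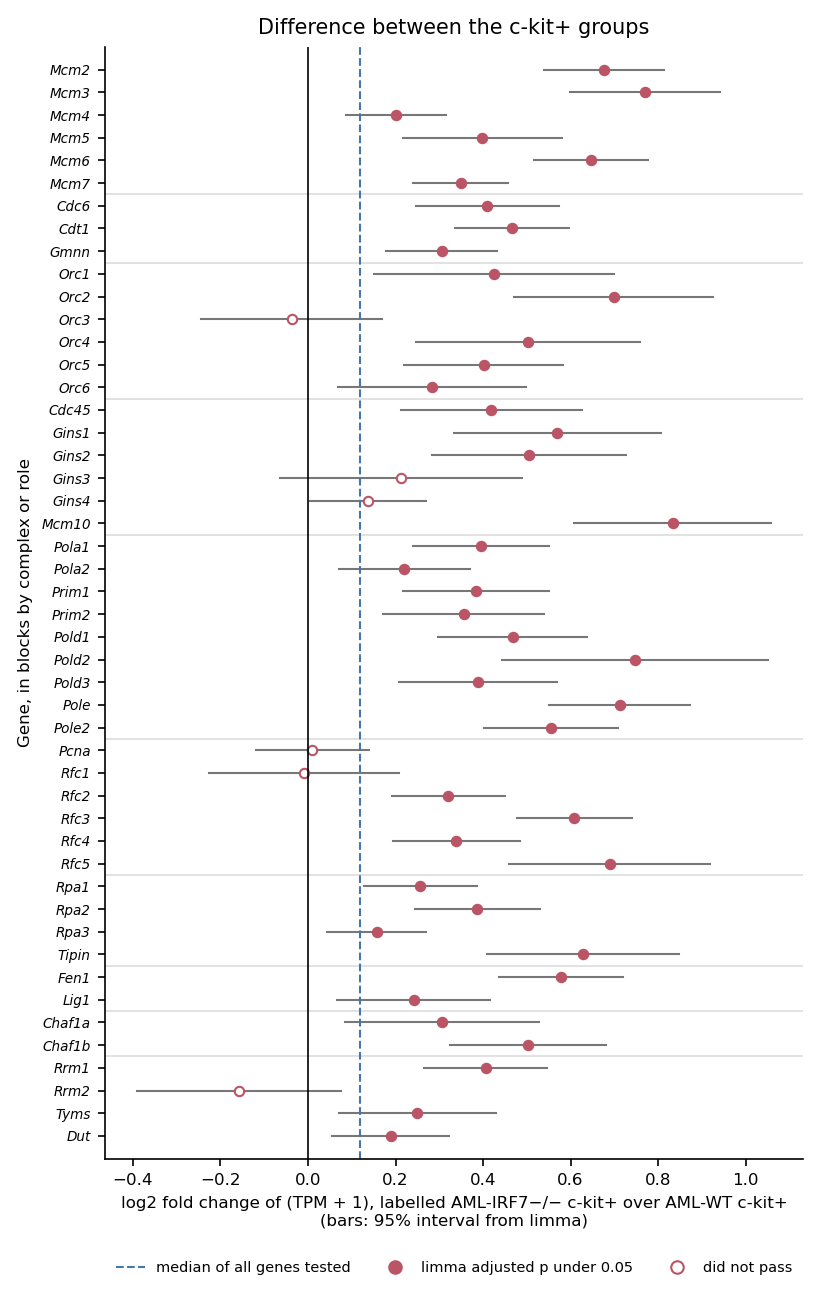
Log2 fold change of (TPM + 1) from WT c-kit+ to the labelled libraries (horizontal axis) for each of the 48 genes (vertical axis, in blocks by complex or role), with the 95% interval from limma as a bar, filled points for an adjusted p under 0.05, and the median of all genes as a dashed line at 0.12. Of the 48 points 42 are filled, from Rpa3 at 0.16 to Mcm10 at 0.83, and Orc3, Gins3, Gins4, Pcna, Rfc1 and Rrm2 are open.

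Other genes of the same pathways, listed apart from the members, are given by their counts. Of 34 other origin and fork genes tested, 13 were higher (38.2%) and 3 lower (8.82%) in WT c-kit+ than in WT c-kit-, against 14.0% and 27.6% of all genes. Between the c-kit+ groups 19 were higher in the labelled libraries (55.9%, against 31.9% of all genes) and 15 did not pass, with a median log2 fold change of 0.30 against 0.12. Recql4, a helicase needed for origins to fire, had the largest rise, from 7.12, 7.55 and 6.95 TPM to 21.4, 19.2 and 22.0 TPM (log2 fold change 1.41, SE 0.09, limma adjusted p = 9.69e-05). It passed both thresholds, which no member did in that comparison. Supt16, a subunit of the histone chaperone FACT, came next with 0.59. Dna2, a nuclease of lagging strand processing, was lower in WT c-kit+ than in WT c-kit-, at 42.9, 41.0 and 44.0 TPM against 97.2, 90.9 and 91.8 TPM, and Pold4, the smallest polymerase delta subunit, was lower as well, at −0.66 on the log2 scale.

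Of 32 other nucleotide supply genes, 8 were higher (25.0%) and 7 lower (21.9%) between the WT groups, against 14.0% and 27.6% of all genes. In the labelled libraries 21 were higher than in WT c-kit+ (65.6%) and 1 lower (3.12%), against 31.9% and 16.1%, with a median log2 fold change of 0.39. Shmt2, a mitochondrial serine hydroxymethyltransferase of folate metabolism, and Nme1, a nucleoside diphosphate kinase, had the largest rises between the c-kit+ groups, with log2 fold changes of 1.10 and 1.00. Shmt2 was 60.7, 78.7 and 72.4 TPM in WT c-kit+ and 151, 161 and 143 TPM across the labelled libraries. Tk1, the thymidine kinase of the salvage route, did not pass between the c-kit+ groups, at −0.31 on the log2 scale (limma adjusted p = 0.0647).

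The 26 mitosis genes, which act after replication is done, were read beside them. Between the c-kit+ groups 3 were higher in the labelled libraries (11.5%, against 31.9% of all genes) and 23 did not pass, with a median log2 fold change of 0.04 against 0.40 for the members and 0.12 for all genes. The largest rises that passed were those of Bub1, a spindle checkpoint kinase, with 0.34 and Nek2, a centrosome kinase, with 0.30. Between the WT groups Cdk1, the kinase that drives entry into mitosis, was the one that was higher, with 0.47. That was 3.85% of the list against 14.0% of all genes, and 0 were lower, against 27.6% of all genes. Against WT c-kit-, 8 were higher in the labelled libraries (30.8%), a share near the 30.7% of all genes. The 9 libraries rose through the 3 groups without overlap for 0 of the 26, against 6.98% of the 12486 genes tested in all 3 comparisons. The group means rose in that order for 15 (57.7%), against 24.3% of those genes. Mki67, the proliferation marker, had log2 fold changes of 0.14 between the WT groups and 0.02 between the c-kit+ groups, and neither passed (limma adjusted p = 0.537 and 0.921).

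**Figure D5:**
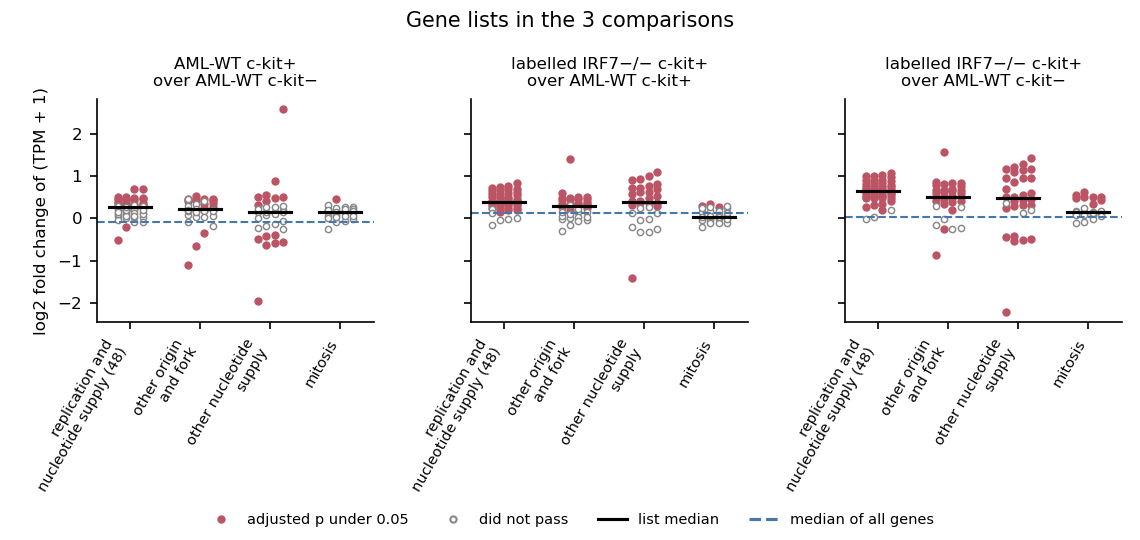
Log2 fold change of (TPM + 1) (vertical axis) of each gene in 4 lists (horizontal axis) for the 3 comparisons (panels), with filled points for a limma adjusted p under 0.05, the list median as a black bar and the median of all genes as a dashed line. Between the c-kit+ groups the median was 0.40 for the 48 replication and nucleotide supply genes, 0.30 for other origin and fork genes, 0.39 for other nucleotide supply genes and 0.04 for mitosis genes.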

How the data were processed

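RNA was sequenced from 9 sorted leukemia samples (TruSeq RNA v2 libraries per the labels). The authors deposited 1 table of TPM, scaled by the length of each gene and the total of each library. The unit is not named in the file and was taken from the values, as each library sums to between 987468 and 992231. Aligner, quantifier and genome build are not given in the sources used here, and the study's methods call the assay a microarray. The column named for WT c-kit+ replicate 3 carries an extra digit and was matched by the rest of its name.

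Every comparison used only its own 6 libraries, with limma 3.58.1 in R 4.3.3 (lmFit, eBayes with trend) on log2(TPM + 1), for genes of 1 TPM or more in 3 or more libraries, and p was adjusted by Benjamini-Hochberg over all genes tested. The log2(TPM + 1) scale understates changes of low genes. The functions were tested on simulated data. With 3 libraries against 3, an exact permutation test cannot go below p = 0.1, so none is given for single genes. Both thresholds means an adjusted p under 0.05 and a log2 fold change of 1 or more, up or down.

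The members and lists were chosen with earlier results of these data known. Named in each list were the largest and smallest changes between the c-kit+ groups and the highest mean, and for the other lists the largest rises and falls that passed. Mki67, Tk1, Rfc3, Pole and other members outside that rule were added where a sentence needed them. Alternatives were other filters, a pseudocount of 0.1, quantile normalization, TPM without the 100 most abundant genes, values relative to the median gene, 1 fit of 9 libraries, the replicate number as a block, an unadjusted p and each library left out. Chtf8, with more than 1 row in the table, was left out of the other fork genes. Promoter sequences are those of RefSeq on GRCm38.p6. Exon overlaps used GENCODE M21 on GRCm38, in which 55450 of the 55536 gene identifiers were found. Python 3.11.15, pandas 2.3.3 and matplotlib 3.10.9 were used.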

Additional observations from a re-analysis of the deposited data

How the results depend on the processing

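No alternative turned the direction of a called member. Between the WT groups, members higher were 38 with quantile normalization, 37 without the 100 most abundant genes and 37 relative to the median gene. The shares of all genes higher were 23.0%, 22.1% and 23.0%, and the members' medians were 0.44, 0.43 and 0.42 on the log2 scale. Members lower were 0 in these and with no filter on low values, against 19.5%, 18.7%, 19.6% and 13.3% of all genes. Leaving out 1 library gave 14 to 23 higher (14 without WT c-kit+ replicate 1) and 0 to 2 lower (1 without WT c-kit- replicate 1 or 2 or WT c-kit+ replicate 2, 0 without WT c-kit+ replicate 1 or 3). Of all genes, 10.7% to 13.1% were then higher and 22.3% to 25.7% lower. Between the c-kit+ groups the members' median was 0.29, 0.29 and 0.32 under those scalings, against 0.03, 0.01 and 0.04 for all genes. Leaving out 1 library gave 34 to 38 higher, against 24.6% to 31.1% of all genes. Members lower were then 0 to 1 (Rrm2, without WT c-kit+ replicate 2, where 15.3% of all genes were lower). Members past both thresholds against WT c-kit- were 2 to 4 with 1 library left out and 5 under each of those scalings.

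With the replicate number as a block, 19 members were higher and 1 lower between the WT groups, against 13.3% and 25.7% of all genes. Between the c-kit+ groups 38 were higher with the block, against 29.3% of all genes. Same-numbered libraries did not all deviate together (r from −0.07 to 0.24), so the numbers were not taken to pair them, and whether same-numbered libraries share a mouse is not given in the sources used here. The 3 libraries a group limit the precision, and TPM give no depth.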

Other observations

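Some genes of nucleotide supply outside the 48 differed by more than any member. Samhd1, a hydrolase that breaks down deoxynucleotide triphosphates, was 333, 301 and 369 TPM in WT c-kit-, 80.8, 90.6 and 83.6 TPM in WT c-kit+ and 77.2, 76.6 and 60.6 TPM across the libraries labelled IRF7-/- c-kit+. The WT groups did not overlap. The log2 fold change was −1.96 (SE 0.09, limma adjusted p = 2.27e-05) between the WT groups, and it did not pass between the c-kit+ groups (limma adjusted p = 0.0866). Impdh1, which makes the guanine nucleotide precursor XMP, was 2.41, 6.18 and 4.95 TPM, then 32.2, 34.4 and 25.9 TPM, then 12.6, 11.2 and 9.08 TPM in the same order. It rose by 2.59 on the log2 scale between the WT groups and was the one gene of its list that was lower in the labelled libraries than in WT c-kit+, with −1.41 (SE 0.15, limma adjusted p = 0.000628). Impdh2, which encodes the other form of this enzyme, rose by 0.37 between the c-kit+ groups (limma adjusted p = 0.00526).

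The largest rises of the list in the labelled libraries over WT c-kit- were those of Dctd, a dCMP deaminase, with 1.42 and of Dtymk, thymidylate kinase, with 1.28, and the largest falls were those of Samhd1 with −2.21 and Adss, of adenine nucleotide synthesis, with −0.53. Between the WT groups Dtymk rose by 0.88 and Cmpk1, a pyrimidine nucleoside monophosphate kinase, was lower with −0.63. Among the other fork genes Pole3 and Cdc7 rose by 0.52 and 0.47 between the WT groups. Recql4 and Uhrf1 had the largest rises against WT c-kit-, with 1.58 and 0.87, and Dna2 and Mcmbp were lower with −0.87 and −0.26.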
